A study of Mus musculus with 12 samples.

Results

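The cells described here are the dividing epithelial cells of 1 mouse mammary tumor, called MT1. They were chosen by the counts of 7 genes in the same data, as the cells of the MT1 libraries with at least 1 UMI (unique molecular identifier, the tag that counts each captured RNA molecule once) of Epcam, a surface protein of epithelial cells, and at least 3 UMIs summed over Top2a, Mki67, Cenpf, Cenpe, Tpx2 and Aspm, a set of 6 genes of G2 and mitosis. This rule found 998 cells, among 6226 Epcam-positive cells and 7690 cells in all of MT1, and among 21157 cells in the whole series. They were set against the 4030 Epcam-positive cells of the same libraries with no UMI of the 6 genes, called reference cells below.

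The series measured single-cell RNA by Drop-seq, which captures cells in droplets and reads the 3′ end of their polyadenylated RNA. The material came from 2 mice on a mixed C57BL/6 and 129/Sv background, both with MMTV-Cre, a Cre recombinase driven by a viral promoter active in mammary epithelium, and with both Brca1 alleles floxed. The fourth mammary glands (MG1 and MG2, with 2 libraries each) and a tumor (MT1, 5 libraries, and MT2, 3 libraries) came from these mice, were digested with collagenase and hyaluronidase, and were depleted of hematopoietic and endothelial cells. Every group carries the same genotype and no wild-type gland was used here. Each tumor came from 1 mouse, so tumor and mouse cannot be told apart, and the 5 MT1 libraries are repeats of 1 tumor. The p-values below therefore cover the spread between libraries, which may be technical, and not the spread between tumors. Libraries were numbered in accession order, and the cycling and reference values of 1 library form a pair because they come from the same library.

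A dividing cell copies its DNA in S phase and separates the copies in mitosis. Before S phase the licensing proteins load the replicative helicase, and polymerases, clamp loaders and nucleotide-making enzymes then carry out synthesis. In G2, Cdk1 with its cyclins starts mitosis, kinesins and spindle proteins build the spindle, the kinetochore checkpoint holds the cell until every chromosome is attached, and the anaphase-promoting complex then destroys the cyclins. BRCA1, the protein whose gene is floxed in these mice, acts in homologous recombination and in the protection of replication forks, and transcription of its gene is known to rise in S phase and G2.

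The values that chose the cells are given as a description. Over the 998 cells, 80.1% had a UMI of Top2a (the topoisomerase that untangles sister chromatids), 70.0% of Mki67 (the Ki-67 antigen), 63.4% of Tpx2 (a spindle assembly factor), 48.1% of Cenpf and 46.7% of Cenpe (both kinetochore proteins) and 26.0% of Aspm (a spindle pole protein). The threshold cut through a continuous range. There were 180 cells just inside it at 3 UMIs and 325 just outside it at 2 UMIs, with a further 873 cells at 1 UMI, and 541 of the 998 cells had 6 UMIs or more. Epcam stood at 2025 UMIs per 1000000 UMIs (counts per 1000000, CPM) in the cycling cells and 2308 in the reference cells, each over all UMIs of the 5 libraries. These 7 genes were left out of all sums and tests that follow.

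The label as epithelial was checked against marker lists. The summed level of 5 epithelial genes other than Epcam (among them Krt8, Krt18 and Cdh1) ranged from 4254 to 4910 CPM over the 5 cycling sums and from 6221 to 7688 over the 5 reference sums. The fibroblast list ranged from 185 to 390 CPM in the cycling sums and from 198 to 761.8 in the reference sums, the endothelial list from 0 to 20.8 and from 11.8 to 39.7, the mural list from 0 to 6.44 and from 4.45 to 16.98, and the immune list from 0 to 4.63 and from 0 to 6.27. Cldn5, a defining endothelial gene, was at 0 UMIs in the cycling cells, a count that permits a level of up to 0.898 CPM (3 counts over the 5 libraries). Cd79a and C1qa, markers of B cells and macrophages, were at 0 UMIs in both states, with the same limit for the cycling and 0.307 CPM for the reference cells. Cells with 2 or more fibroblast UMIs made up 9.12% of the cycling and 5.53% of the reference cells. Droplet data carry free RNA, and 33.3% of the 706 MT1 cells with 5 or more fibroblast UMIs also had an Epcam UMI, against 89.9% of the 6384 cells with under 2 UMIs of the other cell types. Of these groups, in the same order, 25.4% and 15.8% had 3 or more UMIs over the 6 genes. Doublets were not called, and the epithelial, lineage and mesenchymal results are given also without the cells with 2 or more UMIs of other cell types.

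Between 13.2% and 18.9% of the Epcam-positive cells of each library were cycling. The share was 18.9% (exact Clopper-Pearson 95% interval 15.9 to 22.2) in library 1, 13.2% (10.7 to 16.1) in library 2, 14.5% (13.05 to 16.1) in library 3, 15.9% (14.1 to 17.7) in library 4 and 18.9% (16.7 to 21.2) in library 5, with a mean of 16.3% ± 2.57 (SD, n = 5). The mammary glands were far below. MG1 held 11 such cells among 729 Epcam-positive cells and MG2 held 41 among 2112, and the 4 gland libraries lay between 1.09% and 1.96%. In MT2 only 123 of 10314 cells had an Epcam UMI, 57 of them past the threshold, so an Epcam gate would discard nearly all of that tumor and it is compared below without one. These shares use the counts of the rule and were not tested.

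Cycling cells were deeper than reference cells in each library, and library 2 stood apart. The median UMIs per cell were 2137 in cycling and 1744 in reference cells of library 1, 5126.5 and 2605.5 in library 2, 2957.5 and 2126.5 in library 3, 2647 and 1947.5 in library 4, and 2521 and 1946 in library 5. A deeper cell passes a threshold on UMIs more easily, so the tests were also run on cycling and reference cells paired within 10% of the same UMI count in the same library, which kept 117, 85, 299, 260 and 223 pairs. Library totals ran from 1683944 to 6734224 UMIs, and MT1 libraries shared at most 2 cell barcodes with each other.

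**Figure D1:**
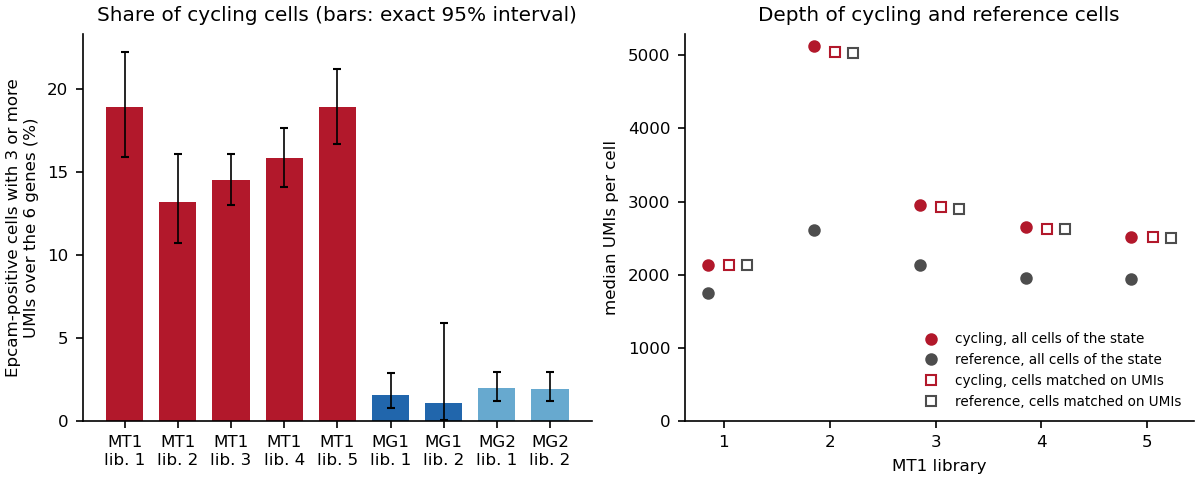
The left panel plots the percentage of Epcam-positive cells with 3 or more UMIs over the 6 genes in each MT1, MG1 and MG2 library, with exact 95% intervals, and the 5 MT1 libraries lie between 13.2% and 18.9% while the gland libraries lie under 2%. The right panel plots the median UMIs per cell of cycling and reference cells in each MT1 library before and after matching, and library 2 has the widest gap, 5126.5 against 2605.5.

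Between cycling and reference cells, 2679 of the 8018 genes tested differed at an adjusted p under 0.05 (33.4%; edgeR's quasi-likelihood test on summed counts, paired by library, Benjamini-Hochberg adjustment). Of all genes tested, 17.2% were higher in the cycling cells (1381) and 16.2% lower (1298), and the median log2 fold change was -0.02. These shares are the background for the counts of list members below. Large changes were mostly increases. A total of 318 genes rose by at least 1 on the log2 scale and 103 fell by as much, and beyond 2 the counts were 139 and 6. Levels of single genes by library are given below in CPM after TMM scaling, which adjusts each library size to the bulk of its genes. The count depended on the method, with 1390 calls by DESeq2 and 1735 without the library pairing.

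**Figure D2:**
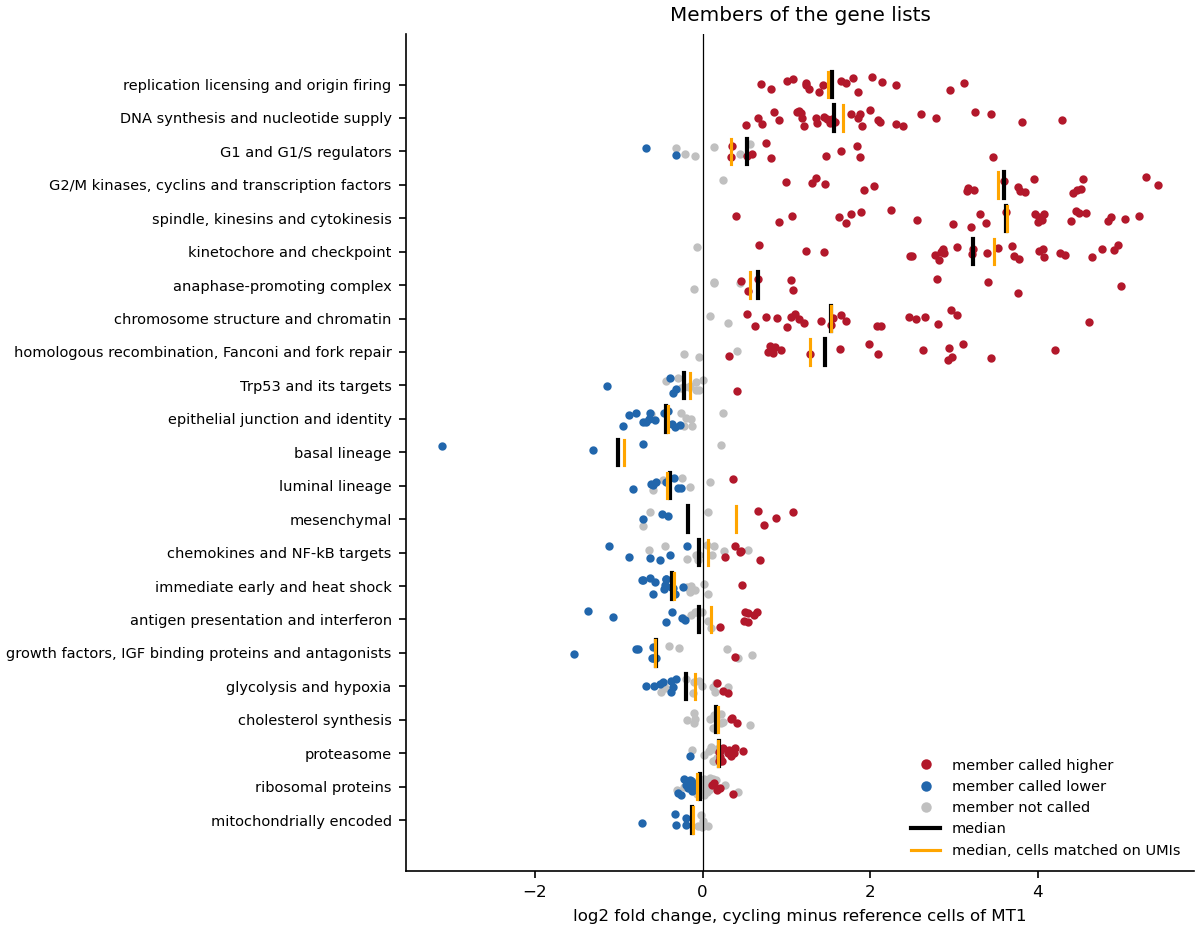
Each point is the log2 fold change, cycling over reference, of 1 member of 23 gene lists (red called higher, blue called lower, grey not called), with the list median in the main comparison (black) and in depth-matched cells (orange). The spindle, G2/M and kinetochore lists have medians of 3.62, 3.60 and 3.23, the S phase lists lie near 1.5, and the epithelial, growth factor and basal lists lie below 0.

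All tested genes of replication were higher in the cycling cells. In the list of licensing and origin firing 18 of 18 tested members rose with a median log2 change of 1.55, and in that of DNA synthesis and nucleotide supply 32 of 32 rose with a median of 1.56. Both counts stayed complete in depth-matched cells (16 of 16, median 1.498, and 31 of 31, median 1.67) and without library 2, and DESeq2 left 1 member of the second list uncalled. None of the replication genes is among the 6 that chose the cells, but they act in the same cycle of division. Their direction is therefore not independent of the choice of cells.

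Cdc6 (chr11:98907801-98923940), which loads the helicase at origins, stood at 24.1, 32.9, 33.8, 27.0 and 41.0 CPM in the cycling cells of libraries 1 to 5 and at 5.26, 2.20, 4.36, 2.83 and 3.84 CPM in the reference cells. The groups did not overlap, and the log2 fold change was 3.12 ± 0.27 (SE; edgeR adjusted p = 1.26e-13). Mcm5, a subunit of that helicase, read 27.5, 43.8, 43.1, 45.8 and 56.8 CPM in cycling and 15.8, 10.3, 15.6, 11.7 and 7.67 CPM in reference cells, with the narrowest gap in library 1, and its log2 change was 1.86 ± 0.20 (edgeR adjusted p = 1.45e-10). Rrm2 (chr12:24708241-24714146), the regulated subunit of ribonucleotide reductase that makes deoxynucleotides, was almost flat across libraries. It read 44.7, 43.8, 45.0, 48.2 and 47.3 CPM in cycling and 2.63, 2.20, 3.73, 3.64 and 2.56 CPM in reference cells, a log2 change of 3.81 ± 0.24 (edgeR adjusted p = 4.36e-18). Pclaf, a partner of the replication clamp, had the largest change of its list at 4.29 ± 0.12, while the clamp itself, Pcna, rose by 1.18 ± 0.10 from a higher reference level (75.8 ± 12.2 CPM, SD, n = 5).

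The regulators of G1 and of entry into S phase moved less and not together. Of 19 tested members 11 were higher, 2 lower and 6 not called, with a median of 0.53, and 7 of 15 were higher in depth-matched cells and 7 of 19 by DESeq2. E2f1, a transcription factor of S phase genes, rose by 1.88 ± 0.28 and Ccne2, a cyclin of S phase entry, by 1.84 ± 0.20. Ccne1 was too low to be tested. Ccnd1, the G1 cyclin, read 440.0, 498, 329, 461 and 383 CPM in cycling and 269.5, 246, 257, 281 and 313 CPM in reference cells. It was higher in all 5 libraries without overlap, by 0.59 ± 0.07 (edgeR adjusted p = 5.12e-09). Cdkn1a, the p21 inhibitor, read 127, 186, 154, 134 and 106 CPM in cycling and 124, 229.7, 186, 173 and 153 CPM in reference cells. These ranges overlapped, it was lower in 4 of 5 libraries, and its log2 change of -0.32 passed in edgeR (adjusted p = 0.00334) but not with DESeq2 (0.0972), in depth-matched cells (0.106) or without pairing (0.162).

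The steepest changes belonged to genes of G2 and mitosis that the rule did not use. In the list of G2/M kinases, cyclins and transcription factors 20 of 21 tested members were higher (median 3.60) and Wee1, the kinase that restrains Cdk1, was not called at 0.24. All 27 tested members of the list of spindle, kinesins and cytokinesis were higher (median 3.62), as were 28 of 29 of the kinetochore and checkpoint list (median 3.23), where Zwint stood at -0.06 with no call. These genes belong to the program from which the 6 chosen genes come, so their direction is not independent of the choice of cells. The medians in depth-matched cells were 3.53, 3.64 and 3.48.

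Cdk1 (chr10:69335146-69352938), the kinase that drives entry into mitosis, read 241, 109.6, 208, 208 and 265 CPM in the cycling cells of libraries 1 to 5 and 3.94, 7.34, 9.65, 8.90 and 14.7 CPM in the reference cells. Library 2 was the lowest of the cycling values, no value overlapped, and the log2 change was 4.43 ± 0.14 (edgeR adjusted p = 2.53e-29). Its mitotic cyclin Ccnb1 read 165, 98.7, 130.3, 133 and 183 CPM against 1.31, 2.20, 2.49, 3.64 and 5.12 CPM, again lowest in library 2, with the largest change among the genes named here at 5.44 ± 0.18 (edgeR adjusted p = 7.64e-29). Plk1 (chr7:122159439-122169873), a kinase of centrosome maturation and mitotic exit, read 37.8, 21.9, 62.8, 55.2 and 45.7 CPM against 1.31, 0.734, 0.934, 1.21 and 1.92 CPM, and rose by 5.29 ± 0.29 (edgeR adjusted p = 2.00e-20). Ccna2, a cyclin that also binds Cdk1, rose by 4.54 ± 0.20. Among the spindle genes, Hmmr, a microtubule-binding spindle protein, went from 6.48 ± 0.5001 to 208 ± 36.4 CPM (SD, n = 5), and Kif4, a chromosome-bound kinesin, from 3.97 ± 1.29 to 92.5 ± 20.9 CPM. Among the kinetochore genes, Knl1, the scaffold to which checkpoint proteins bind, rose by 4.96 ± 0.27 and the checkpoint kinase Bub1 by 4.92 ± 0.20. Birc5 (survivin), of the chromosomal passenger complex, rose by 4.26 ± 0.11.

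**Figure D3:**
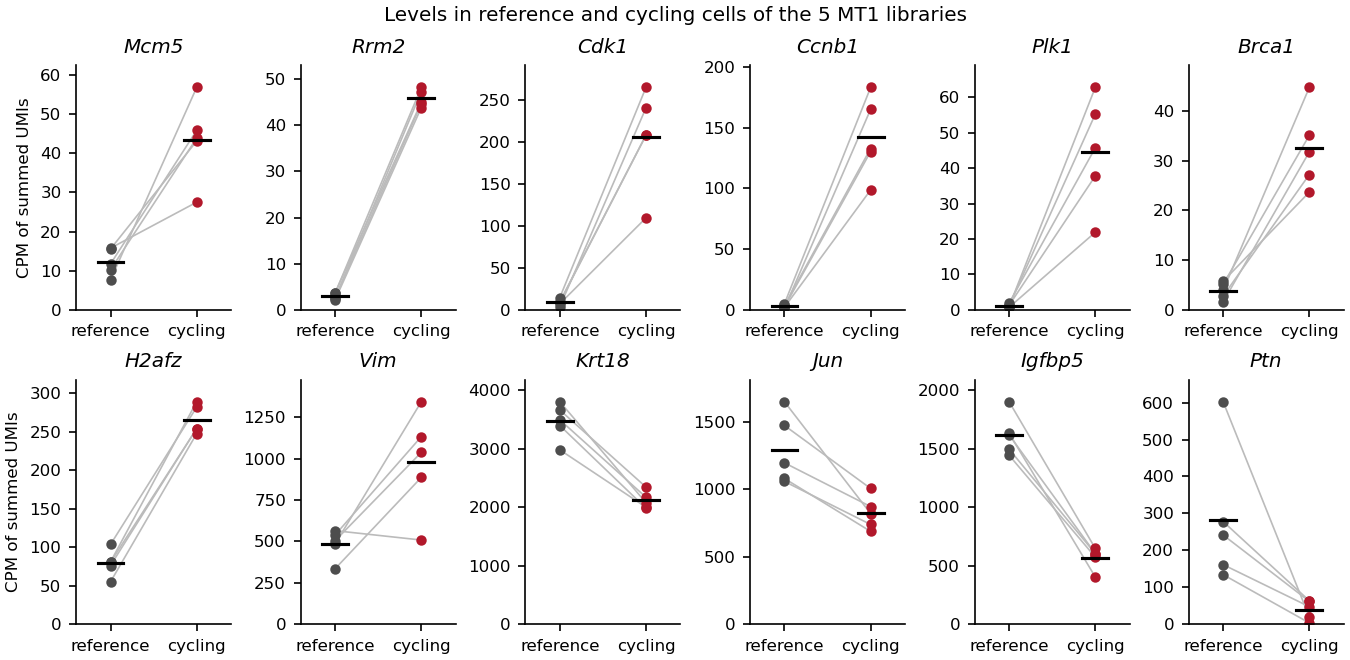
Levels in TMM-scaled CPM of 12 genes in the reference and cycling cells of each MT1 library, with a line joining the values of 1 library and a bar at the mean of the 5 libraries. Mcm5, Rrm2, Cdk1, Ccnb1, Plk1, Brca1 and H2afz lie higher in every cycling sum, Krt18, Jun, Igfbp5 and Ptn lie lower, and Vim is higher in 4 of 5 libraries.

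Of 13 tested members of the anaphase-promoting complex list 9 were higher and 4 were not called, with a list median of 0.66. Its core subunits fell on both sides, with Anapc5, Anapc11, Cdc23 and Cdc27 called higher and Anapc1, Anapc4, Cdc16 and Cdc26 not called. Ube2c (chr2:164769898-164778822), the ubiquitin-conjugating enzyme that works with the complex, read 429.7, 182, 389.9, 408 and 418 CPM in cycling and 15.8, 2.94, 11.8, 13.8 and 13.4 CPM in reference cells. Library 2 was lowest in both states, and the log2 change was 4.99 ± 0.11 (edgeR adjusted p = 4.00e-35). Cdc20, the activator of the complex in mitosis, rose by 3.41 ± 0.17, and Pttg1 (securin), a substrate of it, by 2.80 ± 0.14.

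Promoters of the mitotic and S phase genes were read because these members moved together. Each window holds 250 bases before and 50 after the annotated start (RefSeq, build GRCm38.p6), and was searched on both strands for CCAAT, for TTTGAA (both known elements of G2/M gene promoters, and overlapping each other in 40 windows) and for GCGGGAA (an element of S phase gene promoters). Promoters of 4 mitotic and 2 S phase genes among the named members are shown 5′ to 3′ on the gene's strand. They were taken from the largest increases among called members whose window holds the marked elements, so the presence of these elements follows from the choice. Capitals mark CCAAT and TTTGAA in the mitotic and GCGGGAA in the S phase promoters, in either orientation. Plk1 lies at chr7:122159185-122159484 on the plus strand, Hmmr at chr11:40733388-40733687 on the minus strand, Ube2c at chr2:164769679-164769978 on the plus strand, Kif4 at chrX:100625815-100626114 on the plus strand, Pclaf at chr9:65890073-65890372 on the plus strand and Cdc6 at chr11:98907901-98908200 on the plus strand. For Cdc6, Kif4, Pclaf and Ube2c the RefSeq start lies downstream of the Ensembl gene start. The windows of Cdc6 and Kif4 fall wholly inside the Ensembl gene, and those of Pclaf and Ube2c begin before it.
Plk1: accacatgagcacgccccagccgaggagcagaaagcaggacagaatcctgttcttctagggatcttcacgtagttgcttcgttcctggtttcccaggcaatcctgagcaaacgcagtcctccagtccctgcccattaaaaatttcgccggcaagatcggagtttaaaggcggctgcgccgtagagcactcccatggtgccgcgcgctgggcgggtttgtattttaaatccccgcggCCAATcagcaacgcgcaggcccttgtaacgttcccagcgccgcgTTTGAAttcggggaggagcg
Hmmr: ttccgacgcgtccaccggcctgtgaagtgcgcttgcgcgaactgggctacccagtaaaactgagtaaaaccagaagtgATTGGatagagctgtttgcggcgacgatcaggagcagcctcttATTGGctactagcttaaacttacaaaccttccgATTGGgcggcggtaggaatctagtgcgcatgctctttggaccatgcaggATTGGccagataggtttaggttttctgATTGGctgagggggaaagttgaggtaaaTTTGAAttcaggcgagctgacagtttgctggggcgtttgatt
Ube2c: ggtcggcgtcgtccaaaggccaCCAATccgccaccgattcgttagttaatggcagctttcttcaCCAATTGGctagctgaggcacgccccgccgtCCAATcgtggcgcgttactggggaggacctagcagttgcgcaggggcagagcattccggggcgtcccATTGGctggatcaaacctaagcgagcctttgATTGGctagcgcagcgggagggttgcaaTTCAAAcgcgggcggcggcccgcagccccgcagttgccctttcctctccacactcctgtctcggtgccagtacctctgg
Kif4: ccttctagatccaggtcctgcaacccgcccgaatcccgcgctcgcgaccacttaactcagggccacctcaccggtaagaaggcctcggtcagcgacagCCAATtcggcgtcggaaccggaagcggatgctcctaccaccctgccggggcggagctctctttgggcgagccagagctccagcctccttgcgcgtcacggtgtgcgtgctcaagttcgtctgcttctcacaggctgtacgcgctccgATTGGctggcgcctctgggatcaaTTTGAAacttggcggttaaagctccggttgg
Pclaf: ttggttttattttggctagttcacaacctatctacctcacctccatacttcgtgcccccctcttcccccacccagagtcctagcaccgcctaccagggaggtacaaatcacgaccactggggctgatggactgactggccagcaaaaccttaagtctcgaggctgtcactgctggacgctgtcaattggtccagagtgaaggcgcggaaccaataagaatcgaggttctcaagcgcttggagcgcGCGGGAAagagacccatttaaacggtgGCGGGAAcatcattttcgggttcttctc
Cdc6: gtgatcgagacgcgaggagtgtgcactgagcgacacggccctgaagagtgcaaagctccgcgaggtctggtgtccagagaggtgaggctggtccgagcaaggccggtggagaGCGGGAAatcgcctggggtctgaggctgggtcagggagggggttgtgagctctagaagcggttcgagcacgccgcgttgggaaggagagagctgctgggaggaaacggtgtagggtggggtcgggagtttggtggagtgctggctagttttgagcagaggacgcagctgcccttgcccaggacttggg

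CCAAT and TTTGAA occurred together in 7.12% of all 27025 promoters of this length and in 4.83% of the 6187 promoters found for tested genes. They occurred together in 15 of 27 promoters (55.6%) of the spindle list, in 6 of 15 (40.0%) of the G2/M list, in 9 of 24 (37.5%) of the kinetochore list and in 7 of 19 (36.8%) of the chromatin list. The S phase lists were lower in this pair, with 2 of 30 promoters (6.67%) for DNA synthesis and 3 of 15 (20.0%) for licensing, and 0 of 25 in the repair list. GCGGGAA showed another distribution. It was found in 4.66% of all promoters, in 9.49% of those of tested genes, in 12 of 30 (40.0%) of DNA synthesis, 6 of 15 (40.0%) of licensing and 10 of 25 (40.0%) of repair, against 4 of 19 (21.1%) of the chromatin list, 4 of 24 (16.7%) of the kinetochore list, 1 of 15 (6.67%) of the G2/M list and 0 of 27 of the spindle list. A match is a description of these letters and not evidence of a bound site.

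Genes of chromosome structure rose with the mitotic ones. Of 25 tested members 23 were higher (median 1.53), and the cohesin subunits Stag1 and Stag2 were not called. Hmgb2, a DNA-bending chromatin protein, was abundant and varied little between libraries. It read 1358, 1429, 1336, 1401 and 1278 CPM in cycling and 142, 164, 187, 168 and 197 CPM in reference cells, a log2 change of 2.96 ± 0.06 (edgeR adjusted p = 1.19e-36). H2afz, a histone H2A variant, rose by 1.72 ± 0.09, the condensin subunits Smc2 and Ncapg by 2.81 ± 0.08 and 4.61 ± 0.18, and library 2 was lowest for Smc2 in both states.

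Repair genes of homologous recombination and the Fanconi pathway were higher in 17 of 20 tested members (median 1.46), while 14 of the 34 listed were too low to be tested. Brca1 (chr11:101488764-101551955, minus strand), the gene floxed in these mice, read 44.7, 35.1, 27.2, 31.7 and 23.7 CPM in the cycling cells of libraries 1 to 5 and 3.94, 5.14, 2.80, 1.62 and 5.76 CPM in the reference cells. The groups did not overlap, and the log2 change was 3.10 ± 0.29 (edgeR adjusted p = 1.32e-12) and 3.64 in depth-matched cells. Tags from the 3′ end cannot show whether the floxed part of the gene was removed. Rad54b, a DNA translocase of homologous recombination, rose by 2.97 ± 0.28.

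Trp53 itself and the genes it induces did not move together. Trp53 read 96.2, 156, 148, 132 and 128 CPM in cycling and 105, 112, 102, 106 and 87.0 CPM in reference cells, higher in 4 of 5 libraries and overlapping through library 1, with a log2 change of 0.41 ± 0.10 (edgeR adjusted p = 0.00101). Of the 15 tested members of the list it was the only one that rose. Cdkn1a, Gadd45a, Btg2 and Plk2 fell and the other 10 were not called, and Btg2, an antiproliferative factor, fell by 1.14 ± 0.08 on the log2 scale. Gadd45a and Plk2 lost their calls without library 3 (log2 -0.22 and -0.23), and Gadd45a was lower in 3 of 5 libraries. By DESeq2, in depth-matched cells or without pairing 2 members were called lower in place of 4. Over all genes tested 17.2% were higher and 16.2% lower in the main comparison.

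Epithelial genes were lower in the cycling cells even though every cell compared carried an Epcam UMI. Of 20 tested members of the epithelial junction and identity list 13 fell and none rose (median -0.43), and the count was also 13 without library 2. Without the cells with other-type markers 12 of 19 fell and 1 rose (median -0.34). Krt18 (chr15:102028180-102032027), a keratin of simple and luminal epithelium, read 2169, 2076, 1982, 2343 and 1999 CPM in cycling and 3492, 3801, 3395, 3660.0 and 2979 CPM in reference cells. The groups did not overlap, and the log2 change was -0.71 ± 0.04 (edgeR adjusted p = 6.82e-20), and -0.66 without the cells with other-type markers. Its partner Krt8 fell by 0.63 ± 0.04, Krt19 by 0.88 ± 0.07, the tight junction gene Cldn4 by 0.96 ± 0.09 and the adherens junction cadherin Cdh1 by 0.56 ± 0.09. The values are shares of each cell's RNA, so a fall of a level and a rise of other RNA cannot be told apart.

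In the luminal list 8 of 14 tested members were lower, 5 were not called and 1, the milk protein gene Csn3, was higher (median -0.39), and 8 measured members were too low to be tested. The lower members were 5 of 15 without library 5 and 5 of 14 without pairing, and Csn3 lost its call by DESeq2 and without pairing. In the basal list 8 of 12 members, Krt5 and the contractile genes among them, were too low to be tested, and the 3 of 4 that were lower (median -1.01) are all keratins. With no filter on low counts 4 of 11 were lower and the median was -0.46. Without the cells with other-type markers 6 of 14 luminal members (median -0.29) and 2 of 3 basal members (median -0.63) were lower, and Krt15 was too low to be tested. Krt15, a basal keratin, read 3.44, 2.19, 5.62, 2.35 and 4.73 CPM in cycling and 14.5, 102.0, 22.7, 20.6 and 36.5 CPM in reference cells. Library 2 was far above the other reference values. The log2 change was -3.11 ± 0.31 with it and -2.50 without it (edgeR adjusted p = 1.23e-11 and 8.68e-08). Krt17 fell by 1.30 and Krt14 by 0.72 on the log2 scale.

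The mesenchymal list divided, with 4 of 10 tested members higher and 3 lower (median -0.17), beside 17.2% and 16.2% of all genes. In depth-matched cells 3 of 6 were higher and 2 lower (median 0.39). The counts were 2 and 2 by DESeq2, 2 and 1 without pairing and 3 and 1 without library 5, and the median was 0.09 without library 2 and 0.06 without library 3. Vim (chr2:13573927-13582826), the intermediate filament of mesenchymal cells that some carcinoma cells also make, read 509, 1039, 1345, 887 and 1134 CPM in cycling and 565, 505, 486, 335 and 539.8 CPM in reference cells. Cycling values were higher in libraries 2 to 5 and slightly lower in library 1. The log2 change was 1.08 ± 0.09 (edgeR adjusted p = 5.64e-14), 1.28 without library 1, 0.86 without the cells with 2 or more UMIs of other cell types and 0.68 without the deepest 5% of cells. Lgals1, a galectin of many mesenchymal cells, rose by 0.73 ± 0.07 and by 0.33 without the cells with other-type markers, and in library 1 it was not higher (990.0 against 1020.0 CPM). In the list as a whole 2 of 7 members were higher and 1 lower without those cells. Over the same sums the fibroblast list overlapped in total, at 185 to 390 CPM in cycling and 198 to 761.8 CPM in reference cells, although more cycling than reference cells had 2 or more such UMIs (9.12% and 5.53%). Over all MT1 cells, with no Epcam gate, 25.4% of those with 5 or more fibroblast UMIs passed the 6-gene threshold. The share was 15.8% in those with under 2 UMIs of other cell types. Its members did not move together. Col1a2 stood at -0.72 and Col3a1 at -0.68, and in depth-matched cells at 0.07 and 0.19, while Dcn, the proteoglycan decorin, stood at 0.21, higher in 4 of 5 libraries but not called, and rose by 0.81 in depth-matched cells (edgeR adjusted p = 7.03e-06). The part of these markers in the change of Vim and Lgals1 was not tested beyond the values above.

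Immediate early genes, transcription factors induced within minutes of a stimulus or of dissociation, were lower. Of the 20 members of the immediate early and heat shock list, all tested, 13 fell and 1 rose (median -0.37), and 8 fell without pairing. The riser was Hsp90aa1, a chaperone, at 0.48. Jun read 739, 819.9, 872, 1006 and 688 CPM in cycling and 1058, 1649, 1196, 1473 and 1080.0 CPM in reference cells, without overlap, and fell by 0.63 ± 0.05 on the log2 scale (edgeR adjusted p = 1.90e-13). Klf4 fell by 0.72 ± 0.06 and Fosb by 0.71 ± 0.07.

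Of the 22 tested members of the chemokine and NF-kB target list 5 were higher and 6 lower (median -0.05), near the 17.2% and 16.2% of all genes. Without library 2 these were 2 and 7, and by DESeq2 2 and 3. Ccl20, a chemokine for lymphocytes and dendritic cells, rose by 0.68 ± 0.13, with overlapping ranges and a lower cycling value in library 3 (57.18 against 67.85 CPM). The acute phase protein Lcn2 fell by 0.62 ± 0.05. Of 20 tested members of the antigen presentation and interferon list 7 were higher and 6 lower (median -0.04), against 17.2% and 16.2% of all genes, and these were 4 and 5 by DESeq2 and 4 and 2 without pairing. The class II genes H2-Aa and H2-Ab1 rose by 0.65 ± 0.16 and 0.61 ± 0.15. The interferon-induced gene Ifit1 read 48.1, 63.6, 50.6, 47.0 and 33.1 CPM in cycling and 187, 146, 106, 128 and 96.6 CPM in reference cells, without overlap, and fell by 1.36 ± 0.12 (edgeR adjusted p = 8.06e-13). Ifit3 fell by 1.07.

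In the list of growth factors, their binding proteins and antagonists 7 of 13 tested members were lower, 5 were not called and 1, the activin subunit Inhba, was higher (median -0.56). Over all genes 16.2% were lower and 17.2% higher, and 12 of 25 list members were too low to be tested. Igfbp5 (chr1:72857932-72874884), a secreted binding protein of insulin-like growth factors, read 574, 649, 605, 404 and 604 CPM in cycling and 1445, 1903, 1619, 1633 and 1497 CPM in reference cells. No value overlapped, and the log2 change was -1.53 ± 0.06 (edgeR adjusted p = 1.12e-25). Sfrp1, a secreted WNT antagonist, and Tgfb2, a TGF-beta ligand, fell by 0.77 ± 0.08 and 0.80.

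Metabolic and housekeeping lists moved little. In glycolysis and hypoxia 3 of 23 were higher and 8 lower (median -0.20), and 0 and 4 both by DESeq2 and without pairing. The lower genes include Hk2 (hexokinase, -0.68) and Ndrg1 (a hypoxia-induced gene, -0.58). The proteasome list had 13 of 26 higher and 1 lower (median 0.20), cholesterol synthesis 3 of 15 higher (median 0.16) and the ribosomal proteins 5 of 84 higher and 18 lower (median -0.04), against 17.2% higher and 16.2% lower over all genes. Of the 10 tested mitochondrially encoded genes 5 were lower and none higher (median -0.12). These small shifts depended on the test, since without pairing none of the cholesterol, ribosomal or mitochondrial genes passed, and DESeq2 called no cholesterol gene and 3 ribosomal and 2 mitochondrial genes lower. Without library 4 the lower ribosomal genes were 7, and without library 1 no cholesterol gene was called. Of the proteasome genes 3 were higher without pairing and 8 by DESeq2.

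Among genes in no list, the 5 largest increases named were as follows. Esco2, which acetylates cohesin in S phase, rose by 4.82 ± 0.26, the kinase Pbk by 4.41, Cdca3 by 4.37, Shcbp1 by 4.25 and Cdca5 (sororin, which protects cohesion) by 4.19. The largest decreases named were Gm13889 (-3.00), Gas6 (-2.55, a ligand of TAM receptors), Ptn (-2.51) and Ctla2a (-2.31). Ptn (chr6:36714929-36810220), the secreted heparin-binding factor pleiotrophin, read 3.44, 19.7, 61.9, 63.5 and 47.3 CPM in cycling and 134, 602, 242, 278 and 161 CPM in reference cells. The groups did not overlap, library 2 was the highest reference value, and the log2 change of -2.51 ± 0.16 (edgeR adjusted p = 1.05e-17) was -2.08 without library 2 and -1.91 in depth-matched cells. Gas6 stood at 6.08 ± 4.13 CPM in cycling and 39.8 ± 7.07 CPM in reference cells (SD, n = 5).

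Levels in the Epcam-positive cells are given next by the sum over the 6 genes, in CPM without the TMM scaling used for the levels by library. That sum chose the cells, so the steps are a description conditioned on the rule and were not tested. The G2/M list stood at 375 ± 35.8 CPM (SD, n = 5) in Epcam-positive cells with a sum of 0, at 619 ± 192 with 1, at 1015 ± 384 with 2, at 1470.1 ± 464 with 3 to 5 and at 2074 ± 265 with 6 or more. The licensing list rose over the low sums and then flattened, from 499 ± 71.0 through 848 ± 219 and 1098 ± 201 to 1291 ± 255 and 1402 ± 121 CPM. The epithelial list went down over the same steps, from 10780.3 ± 633 through 9317 ± 864, 8861 ± 487 and 7934 ± 318 to 6866 ± 403 CPM. Means of single genes did not all move the same way at each step. Cdk1 averaged 8.53, 38.5, 89.5, 143 and 246 CPM over the 5 steps, Rrm2 2.84, 12.99, 21.3, 49.3 and 40.7, Brca1 3.70, 12.2, 20.8, 20.1 and 40.7, and Igfbp5 1556, 1125, 941, 672 and 506. The fall of Rrm2 at the last step lay within the spread of the libraries (SD 16.5 and 12.7). So did that of Brca1 from 20.8 to 20.1 (SD 11.4 and 10.3). Cells with more UMIs reach a higher sum, so depth moves with these steps and its part in them was not tested.

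Sets of 13 S phase genes and 10 M phase genes, none of them in the rule, were read in each cell after thinning to 1000 UMIs, a depth that no cell was under. Of the cycling cells 33.3% ± 9.36 (SD, n = 5) had a UMI of both sets, 26.0% ± 4.35 of the S phase set alone, 25.2% ± 3.13 of the M phase set alone and 15.6% ± 7.28 of neither. Of the reference cells 2.05% ± 0.683 had both, 26.9% ± 2.79 the S phase set alone, 2.88% ± 1.21 the M phase set alone and 68.2% ± 3.83 neither. The reference cells were defined by 0 UMIs of 6 genes of G2 and mitosis, so their low share with the M phase set follows from the rule and is a description. Without thinning 69.8% of the cycling and 6.55% of the reference cells had both, and 14.7% and 42.4% the S phase set alone, so the share with the S phase set alone moves with depth and with the share that has both. Library 2 had the most cycling cells with neither set (27.9%), and library 1 the most with both (46.2%). A UMI of a set in 1 cell is not a phase call, and free RNA adds to these shares.

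**Figure D4:**
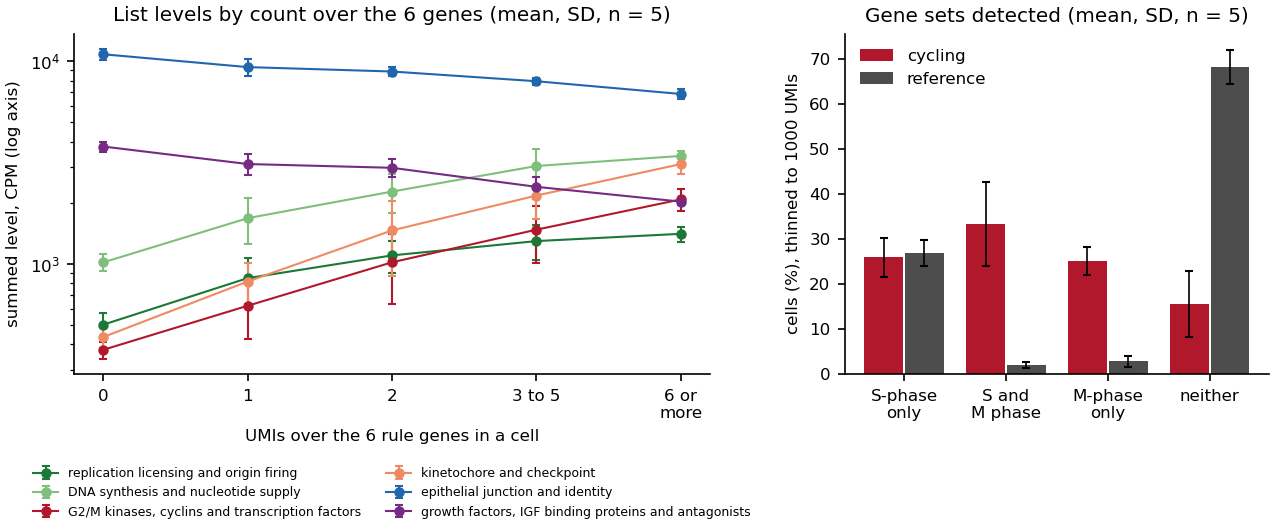
The left panel plots the summed level of gene lists in CPM (log axis; mean and SD over 5 libraries) in Epcam-positive MT1 cells by their sum over the 6 genes, with the G2/M list rising from 375 to 2074 and the epithelial list going from 10780.3 to 6866. The right panel plots the shares of cycling and reference cells with a UMI of the S phase set, the M phase set, both or neither at 1000 UMIs per cell, where both sets are read in 33.3% of cycling and 2.05% of reference cells.

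The second tumor, MT2, holds cells that the rule did not take in, chosen here by the same 6 genes. Without an Epcam gate it held 4549 cells past the threshold and 2948 with a sum of 0. Of 11472 genes tested 1904 were higher in its cycling cells (16.6%) and 1780 lower (15.5%), 32.1% in all. Among the 7618 genes tested in both tumors, 984 genes were higher in both, which is 72.8% of the 1352 MT1 calls and 61.2% of the 1607 MT2 calls, where 21.1% of these 7618 genes were higher in MT2. A further 606 genes were lower in both, 51.4% of the 1179 in MT1 and 48.9% of the 1240 in MT2, where 16.3% of the genes were lower in MT2. Opposite calls were made for 31 genes higher and 16 lower in MT1. Brca1 rose by 3.21 in MT2. The populations differ in gate and makeup. In MT2 the fibroblast list stood at 3093 to 3232 CPM in cycling and 4667 to 6974 CPM in reference sums, and the immune list at 14.98 to 32.9 and 43.4 to 114 CPM. The cells were also compared without those with immune or endothelial markers, while leaving out all other-type markers removed nearly all cells of MT2.

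The difference of the change itself was tested between the tumors and called for 506 of 11401 genes (4.44%), 342 of them higher in MT1 (3.00%) and 164 lower (1.44%). This split depended on the scaling and on the deepest cells. It was 264 and 233 when each tumor was scaled on its own, 151 and 479 without the deepest 5% of cells, and 192 and 208 with both changes. Mitotic genes differed in both directions. Of the G2/M list 1 of 23 members changed more in MT1 and 3 less, of the spindle list 4 and 2 of 30, and of the kinetochore list 6 and 1 of 29. Among the named members, Kif4 rose by 1.73 ± 0.26, Ncapg by 1.60, Knl1 by 1.43, Bub1 by 1.16 and Cdk1 by 1.08 ± 0.22 more on the log2 scale than in MT2. Cdk1 stood at 117, 168 and 123 CPM in the cycling and 11.1, 16.5 and 10.8 CPM in the reference cells of the 3 MT2 libraries. Kif4 stood at 13.8, 17.2 and 9.52 CPM in the MT2 reference cells, all above the 2.20 to 5.26 CPM of the MT1 reference cells, while for Cdk1 these levels overlapped.

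The difference was called for 2 higher and 3 lower of 21 epithelial members and for 6 higher and 0 lower of 14 mesenchymal members, beside the 3.00% and 1.44% over all genes. Krt18 fell in MT1 and rose by 0.19 in MT2, where it read 362, 558 and 462 CPM in cycling and 322, 492 and 394 CPM in reference cells, a difference of -0.85 ± 0.06 (edgeR adjusted p = 4.14e-12). Vim rose in MT1 and fell by 0.12 in MT2, where all 6 sums lay between 3695 and 4170.0 CPM, a difference of 1.30 ± 0.12 (edgeR adjusted p = 2.32e-10). Ifit1, in contrast, had a difference of -3.52 ± 0.28 (edgeR adjusted p = 1.87e-11). It rose in MT2, from 2.69, 2.64 and 2.62 CPM to 16.4, 6.12 and 14.8 CPM, and the difference was -3.46 without cells that carry immune or endothelial markers. Igfbp5 and Sfrp1 fell more in MT2, by 3.51 and 3.12 on the log2 scale, and read 37.2, 15.5 and 20.0 CPM (Igfbp5) in the MT2 reference cells. The class II genes H2-Aa and H2-Ab1 differed by 2.37 and 2.20 with all cells, but by 0.73 and 0.82 (edgeR adjusted p = 0.714 and 0.499) without the cells with immune or endothelial markers. Cdh1 went from 1.403 to 0.87 (edgeR adjusted p = 0.469), so all 3 calls were lost without those cells, with a smaller change for Cdh1.

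**Figure D5:**
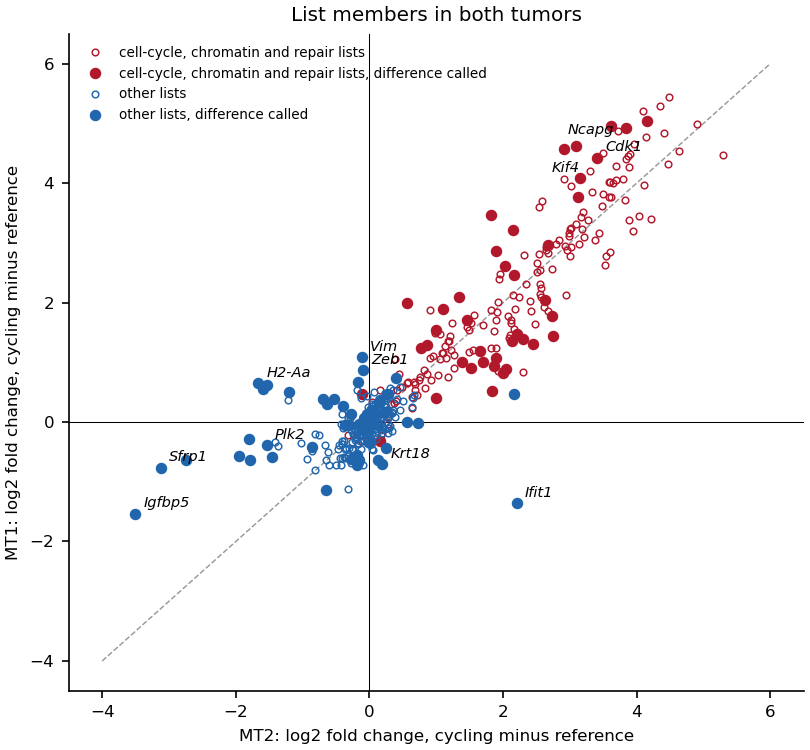
Log2 fold change, cycling over reference, of the 468 list members tested in both tumors, with MT2 on the x axis and MT1 on the y axis, in red for the cell cycle, chromatin and repair lists and in blue for the others, filled for the 85 members whose difference between the tumors was called. Mitotic members lie high in both tumors, Krt18 and Ifit1 lie lower in MT1, and Vim, Igfbp5 and Sfrp1 lie higher in MT1 than in MT2.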

How the data were processed

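Drop-seq RNA was measured in 12 libraries of 2 mice. The authors aligned reads with STAR to GRCm38.p6, processed them with Drop-seq tools 1.13 and filtered cells, and deposited raw UMI counts of 21743 genes in 21157 cells without normalization. Every cell was assigned to a library by its label. Levels (CPM) were computed here. Those of single genes by library are UMIs per 1000000 UMIs of the TMM-scaled sum, and those of marker lists, of the rule's genes and by step of the 6-gene sum are per 1000000 UMIs unscaled.

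Counts were summed per library and state, and the 7 genes of the rule were left out. The main test was the quasi-likelihood test of edgeR 4.0.16 under R 4.3.3 (TMM scaling, filterByExpr, library as block, Benjamini-Hochberg threshold 0.05). The block comes from the design, since both sums share a library. The difference between tumors was an interaction term. DESeq2 1.42.0, RLE scaling, no filter, no block, each library left out, cells matched within 10% of UMIs, other thresholds and cells without other-type markers were alternatives. Thinning used 1000 UMIs. Intervals are exact (95%), a count of 0 was given 3 counts, and both cover counting error only. On simulated data for the MT1 comparison 96% of genes changed by a log2 of 2 and 94% of those changed by 1 were recovered, against 80% at -2 and 72% at -1.

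The members, lists and tests were chosen with earlier results of these data known. Named genes are fixed genes of the cycle, up to 4 called members per list with the largest change, the 10 largest changes in each direction in no list and the 5 largest tumor differences each way, all with 100 or more UMIs, and the marker genes. Members named as exceptions of a list, and values on single genes by step of the 6-gene sum, were chosen after their values were seen. Ensembl and RefSeq coordinates are of build GRCm38.p6. Whether counting used strand is not given in the sources used here, so overlapping genes and close paralogs are uncertain. Doublets were not removed.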

Additional observations from a re-analysis of the deposited data

Results flagged for a closer look

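In 263 sets of 5 library values, 22 held a library far from the other 4 by Dixon's criterion (8.37%), where chance gives about 1 in 20. Library 2 gave several of them. Its median of 5126.5 UMIs per cycling cell lay above 2137 to 2957.5 in the others. In its cycling cells Ube2c was low at 182 CPM and Smc2 at 289, and Jund was high at 866. In its reference cells Cldn4 was high at 399.9 CPM, Krt15 at 102.0 and Jund at 1550.0. Library 1 gave most of the others, in its reference cells with Pclaf at 30.2 CPM, Asf1b at 7.89, Rad54b at 7.89, Pbk at 10.5, Lgals1 at 1020.0 and Apold1 at 38.1, all high, and Cpm at 10.5 and Cdca5 at 0, both low. Psma1 was high in its cycling cells at 478 CPM. Library 3 was high in reference cells for Kif15 at 2.49 CPM and for H2-Ab1 at 46.1. In library 4 the cycling cells were low for Nuf2 at 74.0 CPM and high for Krt19 at 396 and Ccl5 at 96.4, and the reference cells were high for Cdca2 at 4.05.

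The change between the states differed between the tumors for 38 of 143 named genes by the interaction test in edgeR, against 4.44% of all genes tested. Some of the named genes were chosen for the size of this difference, so the count says nothing of the named genes as a group. Values are the log2 change in MT1 minus that in MT2. Among genes of the cell cycle these were Kif4 at 1.73, Ncapg at 1.60, Knl1 at 1.43, Bub1 at 1.16, Cdk1 at 1.08, Hmmr at 0.96, Diaph3 at 0.96, Hmgb2 at 0.34 and the repair gene Tonsl at -1.76. Among Trp53 targets Plk2 differed by 1.20, Btg2 by -0.44 and Cdkn1a by -0.42. Epithelial genes gave Krt18 at -0.85, Krt8 at -0.70 and Cdh1 at 1.403. Mesenchymal and matrix genes gave Vim at 1.30, Zeb1 at 1.02, Lgals1 at 0.41, Col6a3 at 2.49, Col3a1 at 1.64 and Dcn at 0.85. Among secreted factors were Igfbp5 at 2.04, Igfbp3 at 2.46, Sfrp1 at 2.41, Ptn at -2.17, Esm1 at -2.77 and Ccl5 at -3.00. Immune and stress genes gave Ifit1 at -3.52, H2-Aa at 2.37, H2-Ab1 at 2.20, Lcn2 at -0.29, Fosb at -0.47 and Jun at -0.42. The others were Crispld2 at 3.03, Lce1g at 2.56, Reep3 at 2.51, Psmb4 at 0.26 and Gm13889 at -3.72. MT2 was compared without an Epcam gate and carries fibroblast markers in nearly all its cells, and the part of this in the differences was not tested.

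Some of these calls were lost when single libraries or some cells were left out. Without the cells with immune or endothelial markers H2-Aa was at 0.73 (edgeR adjusted p = 0.714), H2-Ab1 to 0.82 (0.499), Cdh1 to 0.87 (0.469) and Esm1 to -1.81 (0.0708), while Igfbp3 at 2.68 (0.064), Hmgb2 at 0.31 (0.0819), Hmmr at 0.93 (0.0561) and Lcn2 at -0.27 (0.0519) lost their calls with differences about as large. Ccl5 lost its call without MT2 library 1 (edgeR adjusted p = 0.0805), Esm1 without MT1 library 3 (0.111) and Igfbp3 without MT1 library 4 (0.149), while Tonsl lost its call without any 1 of 5 libraries, with -1.44 as its smallest difference.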

How the results depend on the processing

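Of the 130 named genes with a value in MT1, 98 kept their call and their direction under each of the 16 alternatives that gave them a value. Some low genes had none in matched cells or without other-type markers. The count of genes that changed was 2679 in MT1, and it was 1390 (825 higher, 565 lower) by DESeq2 and 1735 (955 and 780) with no replicate block. Leaving out each MT1 library gave 2112 to 2561 calls. In MT2 the count of 3684 became 1606 by DESeq2, 1496 with no replicate block and 44 without cells that carry markers of other types, an alternative that leaves few cells there because nearly all MT2 cells carry fibroblast markers, and 2596 to 3721 when a library was left out. The count of 506 differences between the tumors became 293 by DESeq2, 109 with no replicate block, 291 in matched cells, 27 without other-type markers and 313 to 483 when a library was left out, lowest without MT2 library 1. The cause of these shifts was not tested.

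Changes of sign were found in 6 genes of the MT1 comparison, of which Wfdc17 and Col1a2 were called there, and in 1 gene of the difference. Wfdc17 was 0.11 with cycling set at 2 or more UMIs. Ccl5, not called in MT1 at 0.13, was -0.43 by DESeq2, -0.49 in matched cells, -0.29 with cycling at 5 or more UMIs and between -0.58 and 0.56 when a library was left out, below 0 without library 3 (-0.04) or 4 (-0.58). Col6a3 ranged from -0.20 (without library 3) to 0.31, with -0.09 without library 4, and was -0.022 with cycling at 2 or more UMIs. Col1a2 was 0.065 in matched cells and 0.15 with Epcam at 2 or more UMIs, Col3a1 0.19 and 0.078. Dcn ranged from -0.0073 (without library 3) to 0.41, was 0.81 and called in matched cells and was -0.21 without the deepest 5% of cells. The Reep3 difference was -0.38 without other-type markers. Depth limits the low genes, of which 14 listed repair genes could not be tested.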
